A study of Mus musculus with 24 samples.

Results

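The comparison set 3 arrays of unstimulated neurons that expressed both AcP and AcPb against 3 arrays of unstimulated neurons that expressed AcP alone, 6 of the 24 arrays of the series. The arrays were chosen by their titles, and no measured value entered that choice. The neurons with both chains were embryonic cortical neurons of the genotype Il1rap-/-, made to express AcP and AcPb, and were given a control stimulus for 4 h. The neurons with AcP alone were Il1rap-/- cortical neurons made to express AcP and were given the same control stimulus for 4 h. Unstimulated Il1rap-/- neurons made to express AcPb alone or CD25, at 3 arrays each, show the level of a gene in the other arms. The same arms were also measured after IL-1b at 10 ng/ml for 4 h. Cultures grew without serum in Neurobasal medium with B-27 supplement. Not given in the sources used here are the way the proteins were introduced, the promoter that drove them, and any separate culture or animal behind each array. P-values therefore cover the spread among these arrays alone, and that spread may be technical.

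AcP is the accessory chain that joins the IL-1 receptor once IL-1 has bound, and it brings the adaptor proteins that lead to NF-kB and MAP kinases. AcPb is a form of the same gene, Il1rap, made mainly in the nervous system, with a different intracellular end. CD25 is a chain of the receptor for IL-2 and has no part in IL-1 signalling. Cortical cultures from embryos hold neurons and some dividing cells, astrocytes and oligodendrocyte precursors, whose shares shift with culture conditions. Astrocytes that respond to injury or to cytokines raise intermediate filament, adhesion and acute phase genes. Dividing cells pass through a phase of DNA replication and a phase of mitosis, each with its own set of genes.

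The probe sets of Il1rap gave no clear check of the introduced chains. On its brightest probe set Il1rap, which encodes both accessory chains, had 128, 134 and 127 intensity units on the arrays with AcP and AcPb, against 137, 138 and 132 with AcP alone. The groups overlapped, and the introduced sequence need not hold the stretch that a probe set reads. A dimmer probe set of Il1rap had 68.1, 79.4 and 79.3 units with AcP and AcPb, against 51.7, 79.5 and 47 with AcP alone and 52.2, 46.6 and 55.2 with CD25. It overlapped with the AcP arrays and not with the CD25 arrays, and was called against neither (log2 change 0.30 and 0.44, adjusted p = 0.66 and 0.162 in limma). The remaining probe sets of Il1rap gave log2 changes of -0.06, 0.19 and -0.11 against AcP. Against CD25 they gave -0.006, -0.09 and -0.27, and none was called. Il1r1, the signalling IL-1 receptor, had -3.17, 0.29 and 0.28 units with AcP and AcPb, against -3.52, 5.52 and -2.94 with AcP alone, which is at the level of the subtracted background. Il1rn, which encodes the antagonist that blocks this receptor, had 86.4, 99.2 and 55.05 units with AcP and AcPb, against 65.03, 113 and 55.8 with AcP alone, and these groups overlapped. Il2ra, the gene of CD25, had 19.8, 31.5 and 23.8 units with AcP and AcPb, against 31.1, 36.01 and 9.15 with AcP alone, and overlapped too.

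Few probe sets separated the 2 arms. Of 45037 probe sets, 64 (0.142%) passed an adjusted p of 0.05 in limma with Benjamini-Hochberg adjustment over all of them, 23 higher (0.0511%) and 41 lower (0.091%) with AcP and AcPb. All 64 had groups that did not overlap, 13 differed by at least 2-fold on the scale of log2(intensity + 16), and 50 had a single gene symbol. With 1 probe set a gene, 37 of 18193 genes (0.203%) were called, 9 higher (0.0495%) and 28 lower (0.154%). At an unadjusted p under 0.05 the probe sets numbered 4415 (9.8%). The number called varied with the fit. It was 0 when only the 6 arrays were fitted (limma, 2646 at an unadjusted p under 0.05), 4 with the 12 unstimulated arrays and 4 with array weights. Leaving out an array gave 176, 29 and 108 without AcP+AcPb array 1, 2 and 3, and 42, 153 and 468 without AcP array 1, 2 and 3.

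The arrays also differed in a code in their descriptions, whose meaning the labels do not state. It was 22 on AcP+AcPb arrays 1 and 2, 23 on AcP+AcPb array 3, and 21 on all 3 AcP arrays. No code held both groups, so the code and the receptor arm cannot be told apart. With the code as a random block, 41 probe sets and 23 genes were called. Array medians ran from 60.1 to 63.4 units with AcP and AcPb, against 57.4 to 66.4 with AcP alone. The median SD between replicates was 0.116 log2 units with AcP and AcPb, against 0.166 with AcP alone, and between 0.0922 and 0.117 in the other groups.

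Genes were followed in 22 lists of cell types, the cell cycle and inflammation, of which 517 of 561 members were on the array. In the plot of all members, 6 were called. That number was 18, 0 and 2 without AcP+AcPb array 1, 2 and 3, and 2, 8 and 13 without AcP array 1, 2 and 3. They are described here by list, and the members' counts are read beside the shares over all genes. Of all genes, 0.0495% were called higher and 0.154% lower. At an unadjusted p under 0.05 the shares were 3.66% higher and 7.38% lower. Many members were dim, as were 7871 of the 18193 genes, with under 100 units on average in both arms. That held for 21 of 33 reactive astrocyte genes, 11 of 20 oligodendrocyte lineage markers and 22 of 31 interferon response genes. It also held for 23 of 46 mitosis genes and 21 of 44 DNA replication genes.

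**Figure D1:**
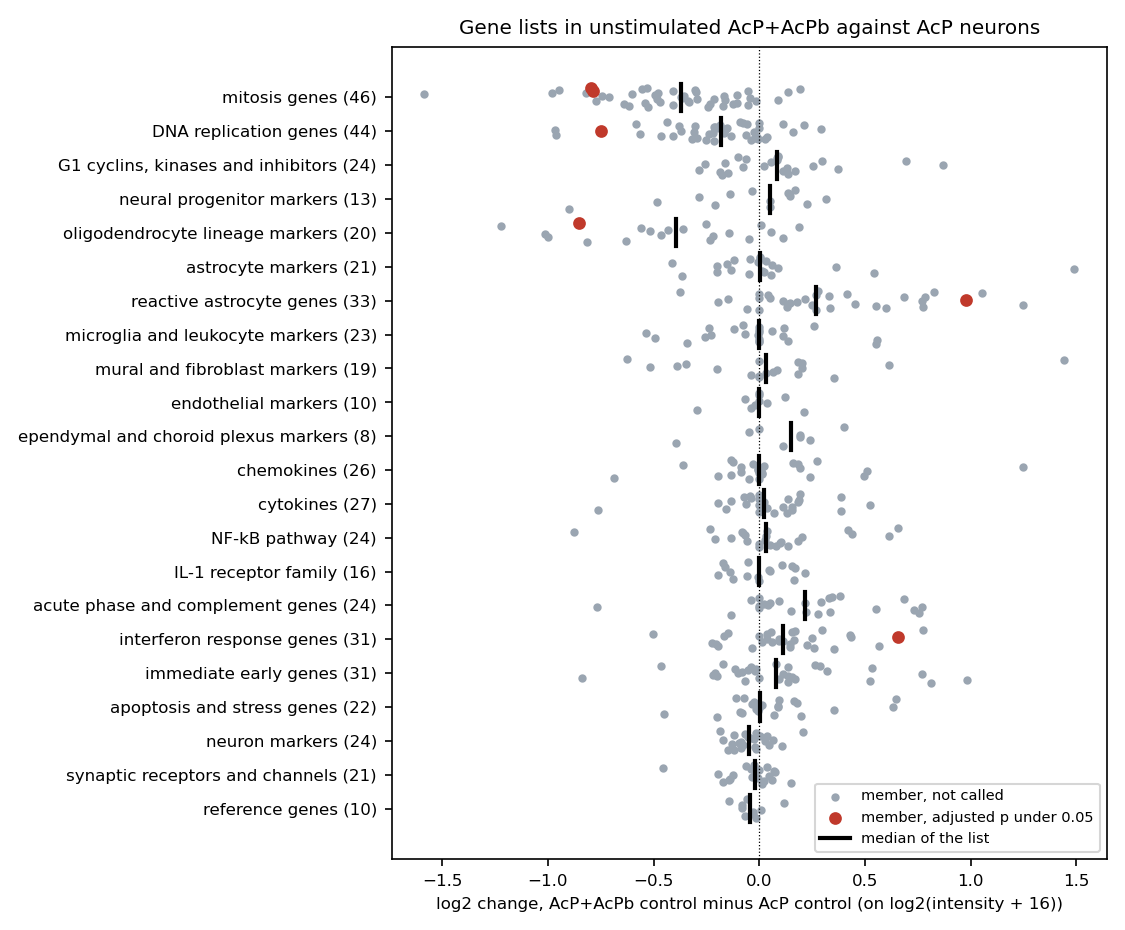
Log2 change of every member of 22 gene lists, AcP+AcPb control minus AcP control, on log2(intensity + 16). The number in brackets is the members on the array, the bar is the median, and the 6 large points are the members called at an adjusted p under 0.05: Ube2c and Racgap1 among mitosis genes, Mcm5, Ugt8a, Osmr and Irgm1. Mitosis genes and oligodendrocyte lineage markers lie mostly left of 0 and reactive astrocyte genes mostly right of it.

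Glial genes split by kind. Of 33 reactive astrocyte genes, 1 was called higher and 0 lower, 10 were higher (beside 3.66% of all genes) and 0 lower at an unadjusted p under 0.05, and the median log2 change was 0.27, beside -0.0097 over all genes. Groups did not overlap for 7 members, all higher with AcP and AcPb, beside 3.83% of all genes. The member called was Osmr, a receptor chain for the cytokine oncostatin M. It had 205, 234 and 352 units with AcP and AcPb, against 106, 126 and 136 with AcP alone. The lowest array with both chains stood above the highest with AcP alone, and Osmr rose by 0.98 ± 0.18 log2 units (SE, adjusted p = 0.0409, n = 3 each). The call of Osmr was lost in 8 of 22 alternatives. Among them were those without AcP+AcPb array 2 or 3, without AcP array 1, with only the 6 arrays and with the mean of its probe sets. Further probe sets of Osmr, averaging 44.7 and 7.7 units with AcP and AcPb, gave log2 changes of 0.11 and 0.78 and were not called.

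Gfap, the intermediate filament that reactive astrocytes raise, was listed with the general astrocyte markers and missed the adjusted threshold. It had 1099.8, 1187 and 1794 units with AcP and AcPb, against 424, 340.3 and 682 with AcP alone. The groups did not overlap, and the log2 change was 1.49 ± 0.30 (adjusted p = 0.0626). Both further probe sets of Gfap gave values close to it, 1.52 and 1.43. The other reactive genes missed the threshold too. S1pr3, a receptor for sphingosine 1-phosphate, had 381, 418 and 618 units with AcP and AcPb, against 272, 232 and 285 with AcP alone (log2 change 0.78 ± 0.20, adjusted p = 0.147). Cd44, an adhesion receptor for hyaluronan, had 337, 434 and 505 units with AcP and AcPb, against 250.4, 188 and 289.5 with AcP alone (log2 change 0.77 ± 0.20, adjusted p = 0.151). For Gfap, S1pr3 and Cd44, AcP+AcPb array 3, the array of code 23, was the highest of the 6. Serpina3n, a secreted protease inhibitor, had 338, 355 and 686 units with AcP and AcPb, against 288, 248 and 261 with AcP alone (log2 change 0.68 ± 0.20, adjusted p = 0.197). Its array 3 stood apart from the other AcP+AcPb arrays, which lay nearer to the AcP arrays. Tgm1 and Timp1 had log2 changes of 1.05 and 0.83, with adjusted p-values of 0.17 and 0.569 in limma, and Tgm1 was near 0 with AcP alone.

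General astrocyte markers, Gfap among them, had no common direction. Of 21, 0 were called in either direction, 3 were higher and 3 lower at an unadjusted p under 0.05, and the median log2 change was 0.00. Aqp4, the water channel of astrocyte end feet, had 3204, 3319 and 3686 units with AcP and AcPb, against 2371, 1974 and 2702 with AcP alone, without overlap (log2 change 0.54 ± 0.15, adjusted p = 0.179). Ndrg2 pointed the other way, with 2251, 2002 and 1905 units with AcP and AcPb, against 2847, 2946 and 2419.8 with AcP alone (log2 change -0.41 ± 0.15, adjusted p = 0.35). Slc1a3, a glutamate transporter, had 3479, 3090.1 and 3268 units with AcP and AcPb, against 4013, 3088 and 3094 with AcP alone, and overlapped. The summed level of the list ran from 39063 to 42813 units with AcP and AcPb, against 39641 to 42779 with AcP alone. In bulk arrays a change in the share of a cell type and a change in RNA per cell cannot be told apart.

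Oligodendrocyte lineage markers lay lower. Of 20, 0 were called higher and 1 lower, 10 were lower and 0 higher at an unadjusted p under 0.05 (beside 7.38% of all genes lower), and the median log2 change was -0.40. The marker called was Ugt8a, the enzyme that makes galactosylceramide, a lipid of myelin. It had 42.7, 28.9 and 30.4 units with AcP and AcPb, against 68.3, 72.7 and 80.4 with AcP alone, and fell by 0.85 ± 0.15 log2 units (SE, adjusted p = 0.0372, n = 3 each). All 3 arrays with both chains lay below every AcP array. The call was lost in 7 of 21 alternatives, among them those without AcP+AcPb array 2 or 3 or without AcP array 1. Mbp, a main protein of myelin, had 706, 328 and 423 units with AcP and AcPb, against 904, 719 and 1319 with AcP alone, without overlap (log2 change -1.02 ± 0.33, adjusted p = 0.27). Pdgfra, the receptor that marks precursors, had 62.8, 36.3 and 64.4 units with AcP and AcPb, against 177, 132 and 131 with AcP alone (log2 change -1.22 ± 0.50, adjusted p = 0.415). Olig1 and Olig2, transcription factors of the lineage, had log2 changes of -0.36 and -0.56, with adjusted p-values of 0.15 and 0.359 in limma. Gpr17, a receptor of immature oligodendrocytes, had 23.6, 2.13 and 45.2 units with AcP and AcPb, against 72.5, 54.9 and 39.9 with AcP alone, and its groups overlapped. The mean level of the list was 6.82 ± 0.171 log2 units with AcP and AcPb, against 7.24 ± 0.114 with AcP alone (SD, n = 3 each).

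Microglia and leukocyte markers were dim. Of 23, 0 were called in either direction, 1 was higher and 2 lower at an unadjusted p under 0.05, and 7 averaged 0 or less in both arms, among them Aif1, Tmem119, C1qa and C1qc. The lower pair was Aif1 and Laptm5, neither with an adjusted p under 0.27. The summed level of the list ran from 1021 to 1121 units with AcP and AcPb, against 1035 to 1277 with AcP alone. Csf1r, the receptor for colony stimulating factor 1, had 229, 287 and 317 units with AcP and AcPb, against 310.2, 322 and 611 with AcP alone, and array 3 of the AcP arm gave the highest value. Adgre1, the macrophage antigen F4/80, had 177, 207 and 193 units with AcP and AcPb, against 127, 134 and 117 with AcP alone, without overlap (log2 change 0.55 ± 0.14, adjusted p = 0.147). Endothelial markers held 0 calls among 10, with 4 at 0 or less in both arms and 0 at an unadjusted p under 0.05. Mural and fibroblast markers held 0 calls among 19, with Tagln and Myl9 higher and 0 lower at an unadjusted p under 0.05. Groups did not overlap for 2 higher and 5 lower members, beside 3.83% and 7.01% of all genes. Vtn and Igf2 had log2 changes of -0.63 and -0.52 (adjusted p = 0.555 and 0.795 in limma). Tagln, an actin-binding protein of contractile cells, had 164, 119 and 257 units with AcP and AcPb, against 115, 8.46 and 87.3 with AcP alone (log2 change 1.44 ± 0.56, adjusted p = 0.389). Ependymal and choroid plexus markers held 0 calls among 8 and 0 at an unadjusted p under 0.05, and Ttr, made by the choroid plexus, ran from 775 to 1090.4 units with AcP and AcPb, against 286 to 1876 with AcP alone.

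**Figure D2:**
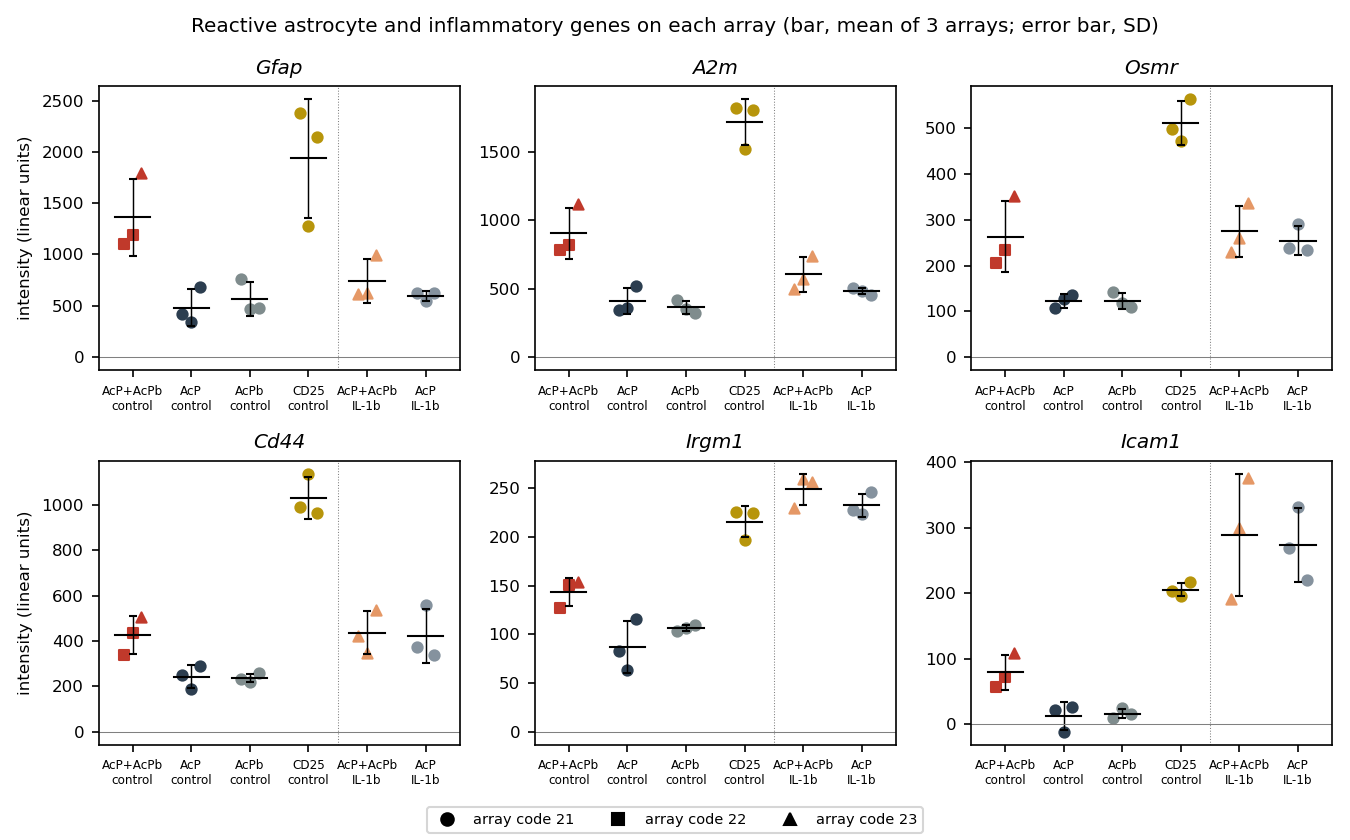
Intensity on each array for Gfap, A2m, Osmr, Cd44, Irgm1 and Icam1 in AcP+AcPb, AcP, AcPb and CD25 controls and in AcP+AcPb and AcP arrays after IL-1b. Points are arrays with the shape giving the array code, bars are means and error bars SDs of 3 arrays. In each panel the AcP+AcPb controls lie above the AcP controls and the CD25 controls average higher still.

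Inflammatory genes gave 1 call in 6 lists. These were chemokines, cytokines, the NF-kB pathway, the IL-1 receptor family, acute phase and complement genes, and interferon response genes. In that order they held 26, 27, 24, 16, 24 and 31 members on the array, and over all genes 0.0495% were called higher. The call was Irgm1, a GTPase induced by interferon. It had 127, 150.4 and 153 units with AcP and AcPb, against 83.3, 63.1 and 115 with AcP alone. The groups did not overlap but stood close, and Irgm1 rose by 0.66 ± 0.12 log2 units (SE, adjusted p = 0.0458, n = 3 each). Its call was lost in 12 of 22 alternatives, the random block for the array code among them. Of 31 interferon response genes, 6 were higher and 0 lower at an unadjusted p under 0.05, beside 3.66% of all genes higher. The median log2 change was 0.11. B2m, the light chain of MHC class I, had 609, 623 and 717 units with AcP and AcPb, against 486, 498 and 529.6 with AcP alone, without overlap (log2 change 0.35 ± 0.09, adjusted p = 0.142). Tap1, the peptide transporter of the same pathway, had 115, 128 and 119 units with AcP and AcPb, against 111, 40.6 and 54.9 with AcP alone (log2 change 0.78 ± 0.22, adjusted p = 0.182).

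Most chemokines and cytokines were dim, with 19 of 26 and 21 of 27 under 100 units on average in both arms. Of the 26 chemokines, 0 were called, and 1 was higher and 0 lower at an unadjusted p under 0.05. That member was Cxcl10, which attracts activated T cells and was also counted among the reactive astrocyte genes above. It had 24.3, 56.4 and 82.3 units with AcP and AcPb, against -2.38, 13.7 and 29.2 with AcP alone. The groups overlapped, and the log2 change was 1.25 ± 0.33 (adjusted p = 0.151). After IL-1b the same gene averaged 2489 units with AcP and AcPb and 2512 with AcP alone, so the unstimulated levels of both arms were a small part of it. Ccl2, which attracts monocytes, had 65.7, 73.9 and 81.2 units with AcP and AcPb, against 71.5, 62.9 and 46.5 with AcP alone, and overlapped. Of the 27 cytokines, 0 were called and 1, Il15, was higher at an unadjusted p under 0.05, with a log2 change of 0.52 (adjusted p = 0.367). Il6 had 10.9, 3.53 and 1.21 units with AcP and AcPb, against 3.84, -0.92 and 3.26 with AcP alone. Nfkbia, the inhibitor of NF-kB that NF-kB itself induces, had 2515, 2909 and 2661 units with AcP and AcPb, against 2674, 2781 and 2469 with AcP alone, and the groups overlapped. Of 24 NF-kB pathway genes, 0 were called, with Traf2 higher and Tnip2 lower at an unadjusted p under 0.05. Of 16 members of the IL-1 receptor family, 0 were called, with Irak1 higher and Il1rapl1 lower at an unadjusted p under 0.05.

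Acute phase and complement genes had 0 calls among 24, with 3 higher and 0 lower at an unadjusted p under 0.05 and a median log2 change of 0.22. Lcn2, an iron-binding acute phase protein, had 67.3, 61.5 and 116 units with AcP and AcPb, against 15.5, 73.5 and 45.4 with AcP alone, and the groups overlapped (log2 change 0.77 ± 0.33, adjusted p = 0.448). The higher members were Serpina3n, given above, Cp and Lcn2. Of the 24 genes, 22 averaged under 100 units in both arms, where noise and the added 16 weigh most. Immediate early genes had 0 calls among 31, with 5 higher and 2 lower at an unadjusted p under 0.05. Fos had 364, 517 and 577 units with AcP and AcPb, against 214, 321 and 295 with AcP alone, without overlap (log2 change 0.77 ± 0.17, adjusted p = 0.0963). Cebpd, a transcription factor of the acute phase response, had 106, 132 and 233 units with AcP and AcPb, against 57.5, 62.6 and 84.6 with AcP alone (log2 change 0.98 ± 0.27, adjusted p = 0.166). The lowest AcP+AcPb array stood above the highest AcP array for both genes.

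A pair of adhesion genes was called outside the rule for names, and both were chosen after their values were seen. Icam1, which holds leukocytes to cells, had 56.5, 71.7 and 109 units with AcP and AcPb, against 22.1, -11.5 and 26.8 with AcP alone. The AcP arrays lay at the level of the background, so the log2 change of 1.64 ± 0.31 (adjusted p = 0.0465) depends on the added 16. A dimmer probe set of Cd44 had 38.6, 59.3 and 81.3 units with AcP and AcPb, against 11.2, 15.6 and 13.5 with AcP alone, and was called higher by 1.33 ± 0.23 (adjusted p = 0.0342), where the brightest probe set, given above, was not.

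Proliferation genes lay lower with AcP and AcPb. Of 46 mitosis genes, 0 were called higher and 2 lower (beside 0.154% of all genes lower). At an unadjusted p under 0.05, 23 were lower and 0 higher (beside 7.38% of all genes lower). In all, 43 had a log2 change below 0. The median was -0.37. Groups did not overlap for 22 members, all lower with AcP and AcPb, beside 7.01% of all genes. The summed level of the list ran from 5047 to 5691 units with AcP and AcPb, against 6752 to 6999.6 with AcP alone. The mean level of the list was 6.37 ± 0.098 log2 units with AcP and AcPb, against 6.78 ± 0.009 with AcP alone (SD, n = 3 each). The median stayed below 0 in all 22 alternatives, between -0.43 and -0.22.

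The mitosis genes called were Ube2c and Racgap1. Ube2c, the ubiquitin-conjugating enzyme of the anaphase-promoting complex, had 73.1, 76.5 and 94.4 units with AcP and AcPb, against 147, 159 and 151 with AcP alone. It fell by 0.80 ± 0.12 log2 units (SE, adjusted p = 0.0127, n = 3 each). Racgap1, a subunit of the complex that organises the spindle midzone for cytokinesis, had 98.6, 65.2 and 92.6 units with AcP and AcPb, against 156, 149 and 167 with AcP alone. It fell by 0.79 ± 0.13 (adjusted p = 0.0246), and a further probe set gave -0.57 (adjusted p = 0.206). For both genes the AcP+AcPb arrays lay apart from the AcP arrays, by more than the width of either group. Both calls were lost with only the 6 arrays, with the 12 unstimulated arrays, with array weights and without AcP+AcPb array 2. That of Racgap1 was also lost without AcP array 1 and with the mean of its probe sets.

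Mki67, the antigen Ki-67 of dividing cells, had the largest difference of the list, with 76.99, 16.4 and 45.97 units with AcP and AcPb, against 175, 153 and 140.01 with AcP alone. The groups did not overlap, but the AcP+AcPb arrays were widely spread, and the log2 change of -1.59 ± 0.34 was not called (adjusted p = 0.0895). Cdk1, the kinase that drives entry into mitosis, had 149, 92.4 and 96.5 units with AcP and AcPb, against 226, 177 and 197 with AcP alone (log2 change -0.77 ± 0.16, adjusted p = 0.0858). Top2a, the topoisomerase that untangles chromosomes, had 170.4, 127 and 138 units with AcP and AcPb, against 223, 199 and 236 with AcP alone (log2 change -0.55 ± 0.13, adjusted p = 0.117). Neither gene's groups overlapped. Aspm, Cdca8, Pttg1 and Aurkb, which act at the spindle or at sister chromatids, had log2 changes of -0.53, -0.47, -0.41 and -0.62, and none was called. Nuf2, Spc24 and Ndc80, parts of one complex of the kinetochore, had log2 changes of -0.98, -0.95 and -0.82 at levels of at most 66.3 units, where the added 16 weighs most. Outside the lists, and chosen after their values were seen, Cep55, which acts in cell separation, and Smc4, a condensin subunit, were called lower, with log2 changes of -0.61 and -0.33 (adjusted p = 0.0465 and 0.0315).

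DNA replication genes shifted less. Of 44, 0 were called higher and 1 lower (beside 0.154% of all genes lower). At an unadjusted p under 0.05, 16 were lower and 1 higher (beside 7.38% and 3.66% of all genes). The median log2 change was -0.18. Groups did not overlap for 11 lower and 2 higher members, beside 7.01% of all genes lower and 3.83% higher. Mcm5, a subunit of the replicative helicase, had 87.4, 69.2 and 66.5 units with AcP and AcPb, against 135, 116 and 158 with AcP alone. It fell by 0.75 ± 0.14 log2 units (SE, adjusted p = 0.0409, n = 3 each), and its call was lost in 10 of 22 alternatives. Mcm6, of the same helicase, had 134, 34.5 and 54.8 units with AcP and AcPb, against 140.3, 153 and 136 with AcP alone, and AcP+AcPb array 1 stood near the AcP arrays. Rrm2, a subunit of ribonucleotide reductase, had 572, 401 and 428 units with AcP and AcPb, against 788, 662 and 659 with AcP alone, without overlap (log2 change -0.59 ± 0.11, adjusted p = 0.0534). Orc1, of the origin recognition complex, was the member higher at an unadjusted p under 0.05, with a log2 change of 0.29 (adjusted p = 0.286).

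Outside both lists, Pclaf, a protein that binds the replication clamp PCNA, had 170.5, 187 and 152 units with AcP and AcPb, against 331, 341 and 269 with AcP alone. It fell by 0.82 ± 0.12 log2 units (SE, adjusted p = 0.00895, n = 3 each). Vrk1, a nuclear kinase with roles in the cell cycle, had 62.4, 51.3 and 38.4 units with AcP and AcPb, against 86.1, 134 and 84.2 with AcP alone, and fell by 0.81 ± 0.15 (adjusted p = 0.0458). That was a dim probe set, and the brightest of Vrk1 gave a log2 change of -0.18. G1 cyclins, kinases and inhibitors had 0 calls among 24, with Gadd45a and Cdkn2b higher, Cdk4 and Cdkn2c lower at an unadjusted p under 0.05, and a median log2 change of 0.08. Neural progenitor markers had 0 calls among 13, with Mfge8 lower at an unadjusted p under 0.05. Nes, a filament of progenitors and reactive astrocytes, had 461, 524 and 505 units with AcP and AcPb, against 380.3, 489 and 332 with AcP alone.

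**Figure D3:**
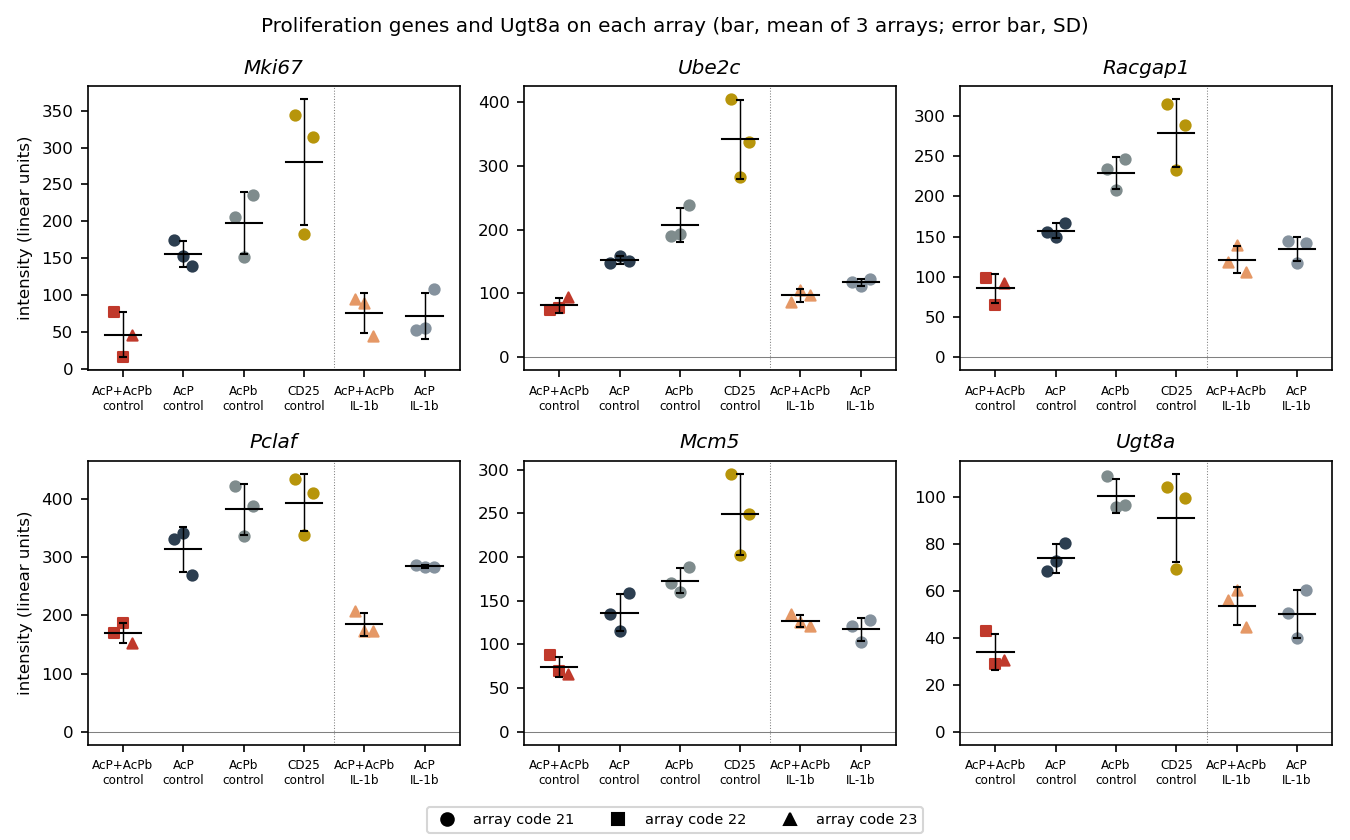
Intensity on each array for Mki67, Ube2c, Racgap1, Pclaf, Mcm5 and Ugt8a in AcP+AcPb, AcP, AcPb and CD25 controls and in AcP+AcPb and AcP arrays after IL-1b. Points are arrays with the shape giving the array code, bars are means and error bars SDs of 3 arrays. In each panel the 3 AcP+AcPb controls lie below every other control array.

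Mitosis genes share promoter elements known as the CHR and the CCAAT box, which bind the DREAM complex and NF-Y and time transcription in the cell cycle. The promoters of 3 mitosis genes described above and of Pclaf are shown because these genes lay lower together. Each runs from 250 bases before to 50 after the gene's start in the RefSeq table of build GRCm38.p6, 5′ to 3′ on the gene's strand. Capitals mark TTTGAA or its reverse complement TTCAAA for the CHR, and CCAAT or its reverse complement ATTGG for the CCAAT box. A CCAAT match and an ATTGG match overlap in Ube2c. Ube2c lies at chr2:164769679-164769978 on the plus strand, Racgap1 at chr15:99651607-99651906 on the minus strand, Mki67 at chr7:135716330-135716629 on the minus strand and Pclaf at chr9:65890073-65890372 on the plus strand.
Ube2c: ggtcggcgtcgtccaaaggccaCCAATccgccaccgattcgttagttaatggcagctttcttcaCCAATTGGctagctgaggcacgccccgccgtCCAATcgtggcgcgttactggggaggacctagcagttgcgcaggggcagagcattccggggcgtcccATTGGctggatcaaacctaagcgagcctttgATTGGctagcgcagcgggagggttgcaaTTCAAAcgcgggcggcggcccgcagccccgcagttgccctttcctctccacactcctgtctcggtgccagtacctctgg
Racgap1: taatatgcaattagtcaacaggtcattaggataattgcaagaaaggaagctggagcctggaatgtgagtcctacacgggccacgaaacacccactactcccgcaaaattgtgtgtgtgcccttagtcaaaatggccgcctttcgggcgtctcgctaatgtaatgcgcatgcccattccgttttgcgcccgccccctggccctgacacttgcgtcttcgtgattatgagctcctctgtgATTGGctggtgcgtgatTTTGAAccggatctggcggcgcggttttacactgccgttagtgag
Mki67: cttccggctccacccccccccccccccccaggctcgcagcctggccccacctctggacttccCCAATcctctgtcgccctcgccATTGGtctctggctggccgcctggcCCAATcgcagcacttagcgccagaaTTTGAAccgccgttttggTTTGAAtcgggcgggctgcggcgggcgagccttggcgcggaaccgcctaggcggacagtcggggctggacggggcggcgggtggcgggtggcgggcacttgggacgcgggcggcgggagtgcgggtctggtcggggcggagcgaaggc
Pclaf: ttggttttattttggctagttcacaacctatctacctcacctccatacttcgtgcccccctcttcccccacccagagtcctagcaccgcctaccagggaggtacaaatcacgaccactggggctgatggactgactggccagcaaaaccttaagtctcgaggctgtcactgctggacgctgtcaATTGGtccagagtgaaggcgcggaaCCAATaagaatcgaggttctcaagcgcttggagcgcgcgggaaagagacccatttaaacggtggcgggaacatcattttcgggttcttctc
The windows of Ube2c and Racgap1 each hold 1 CHR match and that of Mki67 holds 2, and Pclaf holds only CCAAT matches. Of 43 promoters of 40 mitosis genes in the table, 33 (76.7%) held a CHR match, beside 13.4% of 18109 promoters of genes on the array. CCAAT matches were in 76.7% of the mitosis promoters, beside 37.4% of all. The promoters of DNA replication genes held a CHR match in 14.3% and a CCAAT match in 57.1% of 42 windows. A match is only a run of letters, and no binding was measured here.

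Neuron markers differed little. Of 24, 0 were called in either direction, 2 were higher and 3 lower at an unadjusted p under 0.05, and the median log2 change was -0.05. Their mean level was 11.36 ± 0.038 log2 units with AcP and AcPb, against 11.40 ± 0.075 with AcP alone (SD, n = 3 each). Tubb3, the neuronal beta tubulin, had 4422, 4066 and 4205 units with AcP and AcPb, against 5214, 4802 and 4441 with AcP alone, and the groups just failed to overlap (log2 change -0.18 ± 0.07, adjusted p = 0.318). Tbr1, a transcription factor of deep-layer cortical neurons, had 874, 791 and 840.1 units with AcP and AcPb, against 612, 731 and 840.3 with AcP alone. Snap25, of the synaptic vesicle fusion machinery, had 3909, 3561 and 3832 units with AcP and AcPb, against 3712, 3716 and 3848 with AcP alone, and overlapped. Synaptic receptors and channels had 0 calls among 21, apoptosis and stress genes 0 among 22, and reference genes 0 among 10. At an unadjusted p under 0.05 the members numbered 2, 4 and 2 in these lists. Among the stress genes Hmox1, heme oxygenase, had 375, 452 and 562 units with AcP and AcPb, against 309.6, 233 and 333 with AcP alone, without overlap (log2 change 0.63 ± 0.13, adjusted p = 0.0576).

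**Figure D4:**
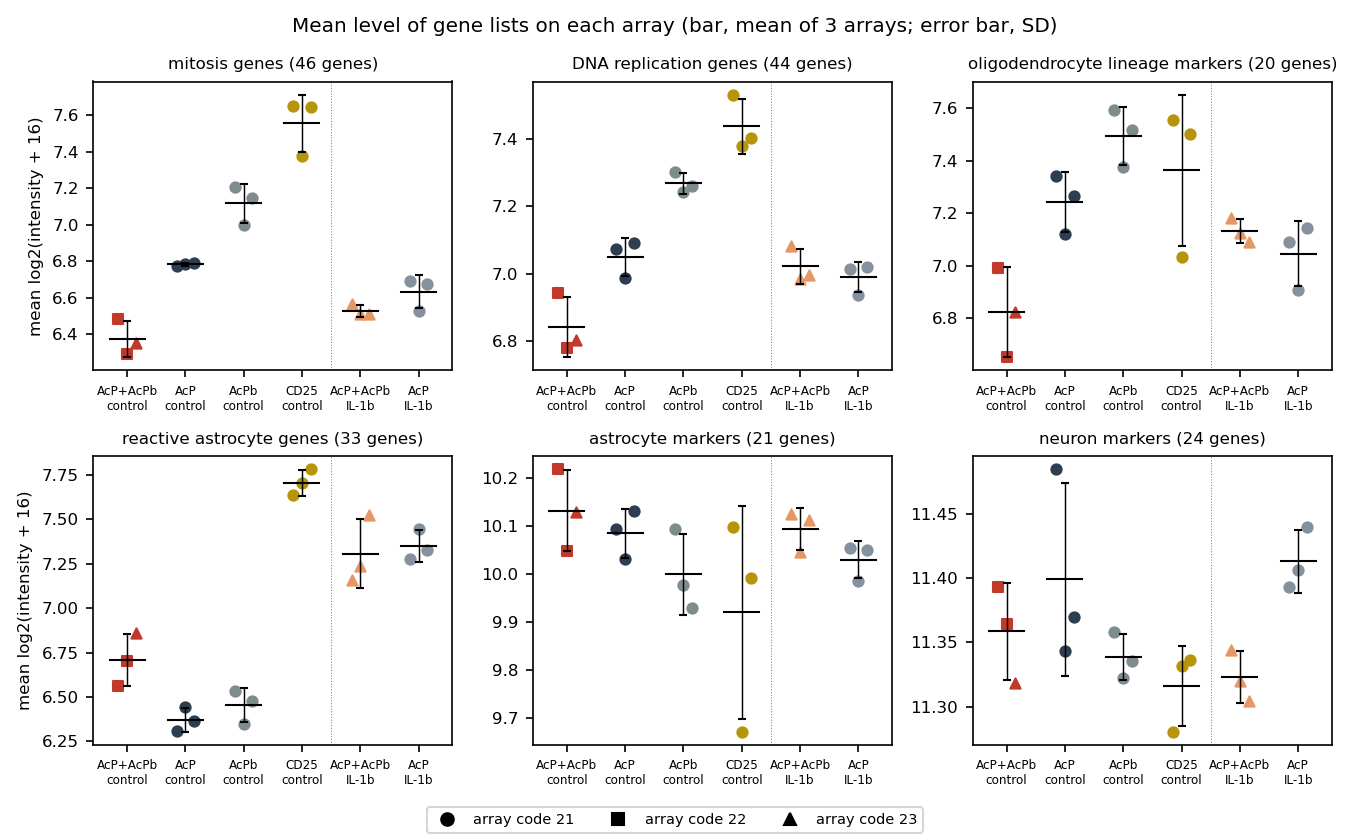
Mean log2(intensity + 16) of 6 gene lists on each array of the AcP+AcPb, AcP, AcPb and CD25 controls and of the AcP+AcPb and AcP arrays after IL-1b. Points are arrays with the shape giving the array code, bars are means and error bars SDs of 3 arrays. The AcP+AcPb controls are the lowest group for mitosis genes, DNA replication genes and oligodendrocyte markers, and for reactive astrocyte genes they lie between the AcP controls and the CD25 controls.

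The largest rises and falls were taken among called probe sets, some of them not the brightest of their gene, and took in genes of other kinds. A2m, the protease inhibitor alpha-2-macroglobulin, had 783, 818 and 1122 units with AcP and AcPb, against 343, 363 and 516 with AcP alone. It rose by 1.13 ± 0.16 log2 units (SE, adjusted p = 0.00895, n = 3 each), the largest rise among the 10 genes named, and its lowest AcP+AcPb array stood well above the highest AcP array. Slc7a11, the cystine and glutamate exchanger, had 112, 152 and 136 units with AcP and AcPb, against 58.4, 63.9 and 74.3 with AcP alone. It rose by 0.87 ± 0.13 (adjusted p = 0.0152), though a brighter probe set gave 0.06. Cav2, a caveolin, had 294, 356 and 409 units with AcP and AcPb, against 210.2, 213 and 238 with AcP alone, and rose by 0.63 ± 0.10 (adjusted p = 0.0236). Cybrd1, a ferric reductase, rose by 0.53 ± 0.10 (adjusted p = 0.0498), though its brightest probe set gave 0.16. Eif4g2, a translation initiation factor, rose by 0.57 ± 0.09 (adjusted p = 0.0241) on a dim probe set. The brightest probe set of Eif4g2 gave a log2 change of -0.02. Fam162a, Fxr1 and Trip12 rose by less, with log2 changes of 0.30, 0.28 and 0.17, on groups with narrow spread. The brightest probe set of Fxr1 gave 0.0090, and further ones of Trip12 lay between -0.30 and 0.28. Fam162a had 1858, 1805 and 1798 units with AcP and AcPb, against 1502, 1455 and 1479 with AcP alone.

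Lsm7, a subunit of the Sm-like ring that works in RNA decay and splicing, had the lowest adjusted p of the comparison. It had 298, 334 and 344 units with AcP and AcPb, against 652, 574 and 677 with AcP alone. The AcP+AcPb arrays of code 22 and of code 23 lay close together, all far below the AcP arrays, and Lsm7 fell by 0.93 ± 0.06 log2 units (SE, adjusted p = 1.17e-06, n = 3 each). It was called in 21 of 22 alternatives, the exception being the fit of 6 arrays. Coq6, an enzyme of coenzyme Q synthesis, had 87.6, 82.3 and 73.6 units with AcP and AcPb, against 179, 165 and 140.1 with AcP alone, and fell by 0.87 ± 0.11 (adjusted p = 0.00592). Htra1, a secreted serine protease, had 886, 684 and 659 units with AcP and AcPb, against 1129.6, 1128 and 1063 with AcP alone, and fell by 0.58 ± 0.08 (adjusted p = 0.00738). Jam2, a junctional adhesion molecule, had 531, 511 and 604 units with AcP and AcPb, against 889.5, 783 and 806 with AcP alone, and fell by 0.58 ± 0.08 (adjusted p = 0.00895). On the probe sets named, no AcP+AcPb array of these genes reached the lowest AcP array. Further probe sets of Jam2 gave -0.53, -0.26, 0.06 and 0.54, none called. The call of Jam2 was lost in 4 of 22 alternatives, the mean of its probe sets among them. Asap1, Rsrp1, Sez6, Ypel1, Ttc14 and Smim14 fell too, with log2 changes between -0.74 and -0.38. The brightest probe sets of Asap1, Rsrp1 and Smim14 gave -0.16, -0.31 and 0.06, and none was called. A further probe set of Ypel1 pointed the other way without overlap, with a log2 change of 0.65 (adjusted p = 0.283 in limma), and another gave -0.35. Further ones of Sez6 gave -0.15 and 0.08, and those of Ttc14 lay between -0.27 and 0.30. Of the 25 genes named as rises or falls, 20 had a further probe set, none of which was called, and in 10 a further probe set pointed the other way.

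The other unstimulated arms place these levels, in comparisons that share the AcP+AcPb arrays. On the probe sets named, 13 of the 15 genes named as falls had their lowest mean with AcP and AcPb among the 4 unstimulated arms. Htra1 and Ypel1 had theirs with CD25. Of the 10 named as rises, Slc7a11, Eif4g2, Fam162a, Fxr1 and Trip12 had their highest mean with AcP and AcPb, again on the probe sets named. The choice of these genes partly fixes that rank, and among all genes 53.5% of those with a lower mean with both chains than with AcP were lowest there of the 4 arms, and 51.9% of those with a higher mean were highest. The means of A2m, Osmr, Irgm1, Cav2 and Cybrd1 lay below the CD25 mean. On their brightest probe sets Slc7a11, Eif4g2 and Fxr1 did too. These averaged 235, 6476 and 413 units with AcP and AcPb, against 303, 6838 and 462 with CD25. A2m averaged 907 units with AcP and AcPb, against 407 with AcP, 364 with AcPb and 1718 with CD25. Gfap averaged 1360.2 units with AcP and AcPb, against 482 with AcP, 568 with AcPb and 1936 with CD25. The mean level of reactive astrocyte genes was 6.71 ± 0.149 log2 units with AcP and AcPb, against 6.37 ± 0.067 with AcP, 6.45 ± 0.095 with AcPb and 7.71 ± 0.073 with CD25 (SD, n = 3 each), so that AcP and AcPb alone did not differ beyond their spread. Against CD25, 17 of the 33 reactive genes were called lower with AcP and AcPb (8.39% of all genes were called lower there). Against AcPb, 1 was called higher (1.2% of all genes) and 1 lower.

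Mitosis genes took another order. Their mean level was 6.37 log2 units with AcP and AcPb, against 6.78 with AcP, 7.12 with AcPb and 7.56 with CD25. Against CD25, 39 of the 46 were called lower with AcP and AcPb, and against AcPb, 24 (1.64% of all genes were called lower there). Ube2c averaged 81.3 units with AcP and AcPb, against 152 with AcP, 207 with AcPb and 341 with CD25. The AcP arm, the arm of this comparison, was the one nearest to the AcP+AcPb arm. Lsm7 averaged 325 units with AcP and AcPb, against 634 with AcP, 682 with AcPb and 745 with CD25, and was lowest with both chains. Htra1 had another order, with 743 units with AcP and AcPb, against 447 with CD25.

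After IL-1b the 2 arms lay closer for these genes. No array is shared with the unstimulated comparison, and the codes again differed between the arms, 23 with AcP and AcPb and 21 with AcP alone. Of the 25 genes named, 22 kept their sign and all 25 had a smaller change, though they were chosen for their size without IL-1b. Groups did not overlap in the same direction for 12, beside 6.96% of all genes higher and 13.7% lower in that comparison. By limma 0 of the 25 were called after IL-1b and 12 had an unadjusted p under 0.05 (24 probe sets, 0.0533%, and 15 genes, 0.0824%, were called in all, and 3.8% of genes were higher and 7.88% lower at an unadjusted p under 0.05). Coq6 had a log2 change of -0.63 after IL-1b (adjusted p = 0.0547) and Pclaf of -0.59 (adjusted p = 0.0815). Their arrays did not overlap after IL-1b either. A2m had 0.30 and Osmr 0.10 (adjusted p = 0.6 and 0.998). Ube2c had -0.25 and Mcm5 0.10 (adjusted p = 0.542 and 0.929). The difference between the comparisons was called for 1 of the 25, Lsm7, which averaged 699 units with AcP and AcPb after IL-1b, against 771 with AcP alone. Of all 64 probe sets called, 47 kept their sign, 26 did not overlap in the same direction, and 1, a dim probe set of Pdrg1, was called again.

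For the lists, the medians after IL-1b were -0.09 for mitosis genes, 0.03 for DNA replication genes, 0.10 for oligodendrocyte lineage markers and -0.03 for reactive astrocyte genes. None of these 4 lists had a member called, and 1, 3, 1 and 0 members passed an unadjusted p of 0.05. The mean level of mitosis genes was 6.53 log2 units with AcP and AcPb, against 6.63 with AcP alone, and that of reactive astrocyte genes was 7.31 with AcP and AcPb, against 7.35 with AcP alone.

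**Figure D5:**
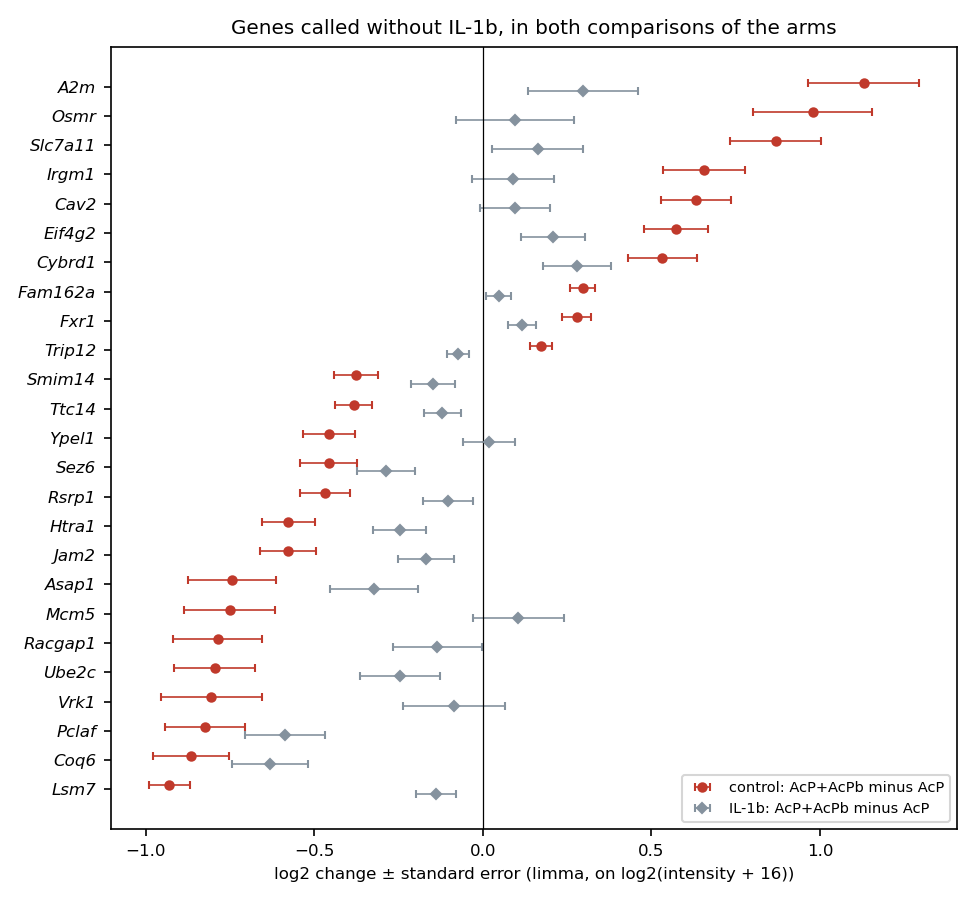
Log2 change with standard error of the 25 genes named as rises or falls, AcP+AcPb minus AcP, without IL-1b (circles) and after it (diamonds). Each diamond lies nearer to 0 than its circle, and those of Ypel1, Mcm5 and Trip12 lie on the other side of 0.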

How the data were processed

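RNA of Il1rap-/- embryonic cortical neurons was labelled with biotin by the Eberwine method and measured on 24 one-colour mouse arrays (8 groups of 3), per the labels. What the authors deposited is 1 linear intensity value per probe set and array, from -1617.3 to 13068.67, with 16.4% to 18.22% of an array below 0. Their summarisation, scaling and background correction were not given in the sources used here. Precision is limited by the number of arrays. Groups came from the sample titles and array codes from the array descriptions.

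The fit left out 40 of 45077 probe sets, those for controls. Annotation gave 34945 of the other 45037 a single symbol, 932 several and 9160 none. RefSeq (GRCm38.p6) matched 34741 by Entrez ID and changed 0 symbols. Negative values were set to 0, 16 was added and log2 taken, with no filter on dim probe sets, so fold changes of dim genes are understated. Overlap of groups was judged on the deposited values before that step, so groups below 0 throughout could count as not overlapping. One model with 8 group means was fitted to the 24 arrays in limma 3.58.1 (R 4.3.3, lmFit, eBayes), with 16 residual degrees of freedom and 0.653 prior ones. P-values are two-sided, adjusted by Benjamini-Hochberg over all probe sets, and called under 0.05. For counts of genes and for lists the probe set with the highest mean over 24 arrays stood for the gene. No exact permutation test was run, since 3 arrays against 3 allow a two-sided p of 0.1 at the lowest. The fit was tested on simulated data, and since no outcome is given here, that test lends the calls no support.

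The genes and lists were chosen with earlier results of these data known. The rule worked on called probe sets, each gene's brightest called one, and named up to 15 rises and 15 falls by size, without overlap between groups and with at least 100 units in the higher group, which gave 10 and 15. It also named the 4 members of each list with the largest absolute change, and Il1rap, Il2ra, Il1r1, Il1rn, Gfap, Mki67 and Cxcl10. Other list members are given to describe their list, and other genes are said to be chosen later. The alternatives changed the floor and added constant, normalization, dim filter, probe set rule, arrays in the fit, variance model, array code block, replicate block and each replicate.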

Additional observations from a re-analysis of the deposited data

Results flagged for a closer look

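Lsm7, a subunit of the Sm-like RNA-binding ring, differed between the comparison without IL-1b and the one after it. The log2 change with AcP and AcPb was -0.14 after IL-1b and -0.93 without it, and the difference of 0.79, tested as an interaction in limma, was called. The 3 AcP+AcPb controls averaged 325 units and the AcP controls 634, while AcP+AcPb arrays after IL-1b averaged 699 and AcP arrays after IL-1b 771.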

How the results depend on the processing

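As reported, 64 probe sets, 37 genes and 6 list members were called. Probe sets and genes called were 40 and 23 with values under 16 set to 16, 30 and 16 with a generalised log, 32 (11 higher, 21 lower) and 13 with array medians centred, 0 and 0 with only the 6 arrays (2646 and 1130 at an unadjusted p under 0.05), 4 and 3 with the 12 unstimulated arrays, 4 and 3 with array weights, and 41 and 23 with the array code as a random block. Genes numbered 24 with the mean of a gene's probe sets. The 2 fits of 1 value a gene give no count of probe sets. List members called were 3 with medians centred, 10 with a dim filter at the 60th percentile, and 0 with the 6 arrays, the 12 unstimulated arrays or array weights (73, 103 and 78 at an unadjusted p under 0.05). Without each replicate in turn the counts ran from 29 to 468 probe sets, 18 to 240 genes and 0 to 18 list members. Of the 25 genes named, those called against AcP after IL-1b, 0 as reported, ran from 0 to 1 without a replicate, and were 1 with 64 added, quantile normalization, the stricter dim filter or 1 probe set a gene in the fit, and 2 with array weights. Against AcPb, 20 of the 25 were called in the main fit, where 1.2% of all genes were called higher and 1.64% lower. That comparison shares the AcP+AcPb arrays on which the 25 were chosen, which raises the count. It was 10 with the mean of probe sets and 13 with the 12 unstimulated arrays, and ran from 16 to 21 without a replicate. The calls of Lsm7 held in 21 of 22 alternatives, Coq6 in 20, A2m, Pclaf and Htra1 in 19, Ube2c, Jam2 and Ttc14 in 18, and those of Irgm1, Sez6, Cybrd1, Trip12 and Vrk1 in 10, 9, 7, 7 and 6. The causes of these changes were not tested.

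Same-numbered arrays of the 2 groups correlated in their deviations from the group means at 0.0682, 0.309 and 0.326. Arrays with different numbers correlated at between -0.399 and 0.0948. The sources used here do not say whether the numbers pair the samples, and the main fit left pairing out. With the replicate block 79 probe sets, 45 genes and 13 list members were called.

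The sign turned with 1 probe set a gene in the fit for Eif4g2 (-0.017) and Smim14 (0.059), both called on a dimmer probe set. For genes not called it turned as follows. With values under 16 set to 16, Il2ra had -0.0901, and with a generalised log Slco1a4 had 0.017. With the mean of probe sets, Rrm2 had 0.041, Irak1 -0.14, Grin2b 0.10, Tfrc 0.052, Tbp -0.11 and Il1rap 0.054. Without each replicate in turn the change lay between -0.089 and 0.73 for Casp8, -0.20 and 0.017 for Il1r1, -0.12 and 0.31 for Il1rn, -0.28 and 0.24 for Il2ra, -0.43 and 0.11 for Sigirr, -0.17 and 0.10 for Slco1a4, -0.066 and 0.27 for Tek, and -0.22 and 1.11 for Ttr.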
